A study of Homo sapiens with 4 samples.

Results

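The MYC, MAX and MXD network was examined in NOMO-1, an established monocytic cell line from a human acute myeloid leukaemia, after treatment with lentiviral hairpins against the zinc finger transcription factor ZFX. Its 10 members were MYC, MYCN, MYCL, MAX, MXD1, MXI1, MXD3, MXD4, MNT and MLX. They were taken by symbol, each had 1 probe set with a single symbol, and they are 10 of the 18417 genes that the array names in this way and of the 12892 genes tested. Gene expression was measured on 4 arrays, 1 per construct, from cells infected at a multiplicity of infection of 1 and harvested for RNA 48 h past selection. The control group, whose genotype is given as ZFX wild type, held LEN-GFP (a GFP lentivirus) and SCR (a scrambled hairpin). The group labelled ZFX knock-down held the hairpins ZFX-SH1 and ZFX-SH3, written SH1 and SH3 here. No construct was repeated, so each hairpin is known from 1 array, and the labels leave unsaid whether separate cultures were used. Values are log2 of the deposited probe set intensity, and a difference of 1 on this scale is a 2-fold change.

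MYC, MYCN and MYCL are transcription factors of the basic helix-loop-helix leucine zipper class that bind DNA as heterodimers with MAX, mostly at E-boxes, and activate genes of growth, ribosome production and nucleotide synthesis. The MXD proteins and MNT compete for MAX and repress the same sites through SIN3 corepressors, while MLX joins the network to the glucose-responsive factors MLXIP and MLXIPL. In myeloid cells MYC is known to be high in proliferating precursors and MXD1 to be induced during maturation.

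The E-box CACGTG, which reads the same on both strands, lay before the start site of 3 members with a RefSeq promoter window (250 bases before to 50 after the start, build GRCh38.p14). These windows and those of 2 transporter genes that are named below as MYC-activated are shown because they carry the site that MYC, MXD and MNT share, with the E-box in capitals.
MXD4 (chr4:2262315-2262359, minus strand): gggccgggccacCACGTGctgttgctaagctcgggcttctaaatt
MNT (chr17:2401221-2401280, minus strand): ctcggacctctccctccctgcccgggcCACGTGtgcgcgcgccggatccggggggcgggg
MLX (chr17:42567023-42567082, plus strand): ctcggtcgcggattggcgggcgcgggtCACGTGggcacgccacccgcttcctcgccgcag
SLC7A5 (chr16:87869605-87869664, minus strand): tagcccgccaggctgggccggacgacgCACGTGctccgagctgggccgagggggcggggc
SLC1A5 (chr19:46787311-46787370, minus strand): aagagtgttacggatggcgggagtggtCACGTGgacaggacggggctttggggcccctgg
The E-box began 238 bases before the start site in MXD4, 193 in MNT, 50 in MLX, 130 in SLC7A5 and 50 in SLC1A5. It was present in 3 of the 9 members with a window (33.3%), against 12.4% of the tested genes with a window (1263 of 10210, any window of a gene counted) and 7.26% of all 35116 windows. The core of the motif that ZFX is known to bind, AGGCCT, was found in 0 of these 9 members, against 14.5% of the tested genes. MYC was the member without a window, so its promoter was not searched for any of these motifs. No member's window was measured for binding, so these matches describe the letters only.

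MXD1, which rose on SH3, had no E-box in its window. The 250 bases before its start site (chr2:69914859-69915108, plus strand, GRCh38.p14) are shown with the GC boxes GGGCGG in capitals, a site of SP family factors that was searched on both strands.
MXD1: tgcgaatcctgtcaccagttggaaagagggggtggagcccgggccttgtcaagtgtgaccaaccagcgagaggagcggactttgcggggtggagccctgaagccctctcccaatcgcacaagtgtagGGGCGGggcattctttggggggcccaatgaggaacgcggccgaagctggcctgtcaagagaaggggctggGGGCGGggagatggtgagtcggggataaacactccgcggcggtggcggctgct
All 9 members with a window held a GC box, as did 75.1% of the tested genes with a window.

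ZFX mRNA was at nearly the same level on both hairpin arrays, below both controls, but the SH3 array stood apart from the other 3 over all genes. ZFX measured 10.65 (LEN-GFP), 10.66 (SCR), 10.13 (SH1) and 10.12 (SH3), so the hairpin arrays were at 69.7% and 68.9% of the control mean. The difference from control was -0.54 on SH3 (SE 0.12, limma's adjusted p = 0.0185) and -0.52 on SH1 (SE 0.12), which did not pass (limma's adjusted p = 0.121), nor did the hairpins as 1 group (-0.53, SE 0.10, limma's adjusted p = 0.797). The difference of SH3 from SH1 for ZFX was -0.02 (95% interval -0.32 to 0.29). Pearson correlations across the tested genes were 0.972 to 0.976 for pairs with SH3 and 0.990 to 0.994 for the other pairs. As single arrays against the control pair, SH3 differed on 13.3% of tested genes and SH1 on 0.403% (limma, adjusted p under 0.05). The hairpins taken as 1 group against the controls gave 0 called genes in limma (779 at an unadjusted p under 0.05, 686 with ordinary statistics). In the fits of single arrays the spread came from the control pair, with 1 residual degree of freedom, and the lone array was assumed to vary like it. This spread was moderated in limma with 7.85 prior degrees of freedom drawn from all tested genes. The 2 single-array comparisons share their controls.

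Among the activating members, MYC fell and MYCL rose on SH3, and no MYC family member was called on SH1. MYC (probe set 8148317) had log2 intensities of 11.37 on LEN-GFP, 11.21 on SCR, 11.09 on SH1 and 10.30 on SH3. Both hairpin arrays lay below both controls, SH1 by little and SH3 by far. MYC on SH3 was at 50.4% of its control mean (difference -0.99, SE 0.12, limma's adjusted p = 0.00126). On SH1 it was at 87.2% (difference -0.20, SE 0.12, limma's adjusted p = 0.683).

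MYCL, the family member first found amplified in lung cancer and also expressed in some myeloid and dendritic cells, moved the other way. Its log2 intensities were 8.74 on LEN-GFP, 8.60 on SCR, 8.79 on SH1 and 9.33 on SH3. The hairpin arrays again lay on one side of the controls, with SH1 close to LEN-GFP. On SH3 MYCL was 1.57-fold its control mean (difference 0.65, SE 0.15, limma's adjusted p = 0.0204), and on SH1 the difference was 0.11 (95% interval -0.22 to 0.45). MYCN, the neural family member, was dim, at 6.87, 6.98, 6.95 and 6.86 on LEN-GFP, SCR, SH1 and SH3, close to the limit of 6.70 below which genes were left out. The table has no detection calls, so its expression in these cells could not be judged, and its difference on SH3 was -0.07 (95% interval -0.34 to 0.20).

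MAX, the common partner of all MYC, MXD and MNT proteins, was not called on either hairpin. Its log2 intensities were 9.95 on LEN-GFP, 9.86 on SCR, 9.77 on SH1 and 9.99 on SH3, so SH1 was the lowest array, SH3 the highest and the groups overlapped. The difference was -0.14 on SH1 (95% interval -0.43 to 0.16) and 0.09 on SH3 (95% interval -0.21 to 0.38), and the latter interval reaches from 86.6% to 130% of the control level.

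**Figure D1:**
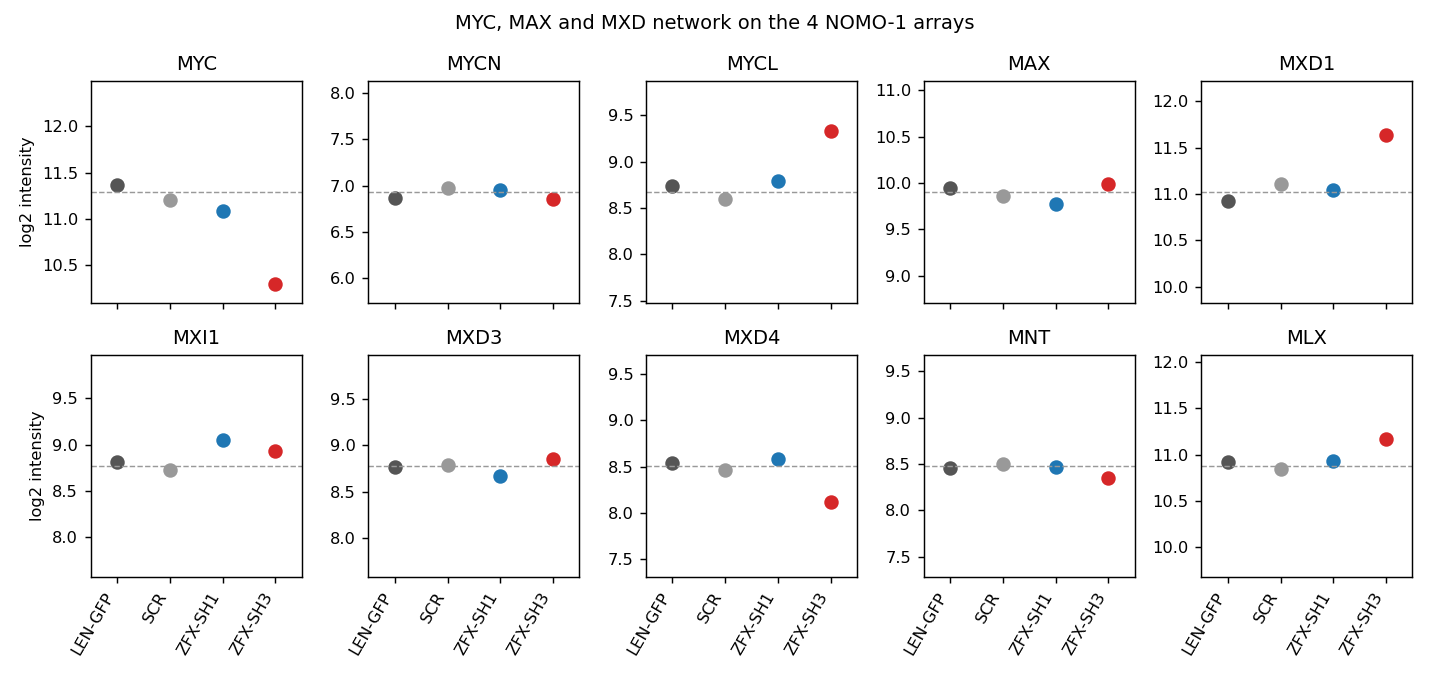
Log2 intensity of each network member on the LEN-GFP, SCR, ZFX-SH1 and ZFX-SH3 arrays, 1 point per array, with the mean of both controls as a dashed line. Every panel spans the same log2 distance but has its own centre, and levels are not comparable between panels. The SH3 point is lowest for MYC (10.30) and highest for MYCL (9.33) and MXD1 (11.64), while SH1 lies near the controls.

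Of the 4 MXD repressors, MXD1 rose on SH3 and the others were not called on either hairpin. MXD1 (probe set 8042503) had log2 intensities of 10.93 on LEN-GFP, 11.11 on SCR, 11.04 on SH1 and 11.64 on SH3. SH1 lay between the controls and SH3 above all other arrays, so the groups overlapped. MXD1 on SH3 was 1.54-fold its control mean (difference 0.62, SE 0.12, limma's adjusted p = 0.00913), against a difference of 0.02 on SH1 (95% interval -0.24 to 0.29).

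MXD4, a family member described in differentiating and resting cells, was the repressor with the lowest value on SH3 relative to its controls. Its log2 intensities were 8.54 on LEN-GFP, 8.47 on SCR, 8.58 on SH1 and 8.12 on SH3. SH3 lay below the other 3 arrays, but the difference of -0.39 (SE 0.14) did not pass limma's adjustment (adjusted p = 0.122). MXD4 is 1 of the 3 members whose promoter window holds an E-box, and MNT and MLX, the others, did not pass either.

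MXI1 (also known as MXD2) was the member farthest from its control mean on SH1. It measured 8.81 on LEN-GFP, 8.73 on SCR, 9.05 on SH1 and 8.93 on SH3. Both hairpin arrays lay above both controls, by a difference of 0.28 on SH1 (SE 0.14, limma's adjusted p = 0.600) and 0.16 on SH3 (SE 0.14, limma's adjusted p = 0.564). MXD3, the family member linked to S phase, stayed within a narrow range, at 8.77, 8.79, 8.67 and 8.85 on LEN-GFP, SCR, SH1 and SH3, with a difference of 0.07 on SH3 (95% interval -0.25 to 0.39).

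MNT, the broadly expressed MAX-binding repressor, was at 8.46 on LEN-GFP, 8.50 on SCR, 8.47 on SH1 and 8.35 on SH3. Its difference was -0.12 on SH3 (95% interval -0.44 to 0.20). MLX, the partner of the glucose-sensing Mondo factors, was at 10.92, 10.85, 10.93 and 11.17 on LEN-GFP, SCR, SH1 and SH3. Both hairpin arrays lay above both controls for MLX, but SH1 by little, and on SH3 the difference of 0.28 (SE 0.11) did not pass (limma's adjusted p = 0.134).

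In all, 3 of the 10 members were called on SH3, where 13.3% of all tested genes were called. Of these 2 were higher (6.33% of all tested genes) and 1 was lower (7% of all tested genes). On SH1 0 of 10 were called in limma, against 0.403% of all tested genes (0.155% higher and 0.248% lower). A list of 10 genes is too short to tell these shares from those of all tested genes. The SH3 array was the highest or the lowest of the 4 for 9 members, against 66.4% of tested genes. The hairpin and control groups did not overlap for 4 members (MYC, MYCL, MXI1 and MLX), against 37.2%. As 1 group against the controls, the hairpins gave differences of -0.59 for MYC (SE 0.27), 0.38 for MYCL (SE 0.21) and 0.32 for MXD1 (SE 0.22), with limma's adjusted p of 0.797, 0.797 and 0.817. Leaving the SH1 array out makes this the comparison of SH3 with both controls given above (-0.99, 0.65 and 0.62), so it is no separate result. Without SH3 it is likewise that of SH1, with differences of -0.20, 0.11 and 0.02.

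The hairpins themselves were compared next, since ZFX was at nearly the same level on them. SH3 lay below SH1 for MYC by 0.79 on the log2 scale (difference -0.79, SE 0.13, limma's adjusted p = 0.00986) and above it for MXD1 (difference 0.60, SE 0.13, limma's adjusted p = 0.0284). These are 2 of 10 members, where 8.49% of all tested genes were called between the hairpins (4.01% higher and 4.48% lower on SH3). The MXD1 call was lost with no filter on dim genes (limma's adjusted p = 0.0513) and without the intensity trend (0.0644). With ordinary statistics neither call held (adjusted p of the ordinary t-test 0.618 for MYC and 0.640 for MXD1). The spread of all 4 arrays gave limma's adjusted p = 0.734 for both. That spread holds the distance between the hairpins itself, so it could call no gene in this comparison. MYCL did not pass in this comparison (difference 0.54, SE 0.17, limma's adjusted p = 0.0934), nor did MXD4 (-0.46, SE 0.17, limma's adjusted p = 0.141). The distance of MYC from MXD1, set to 0 at the control mean, was 0.16 on LEN-GFP, -0.16 on SCR, -0.22 on SH1 and -1.61 on SH3. SH1 lay just past the range of the controls on this measure and SH3 far outside it. The measure only combines the MYC and MXD1 differences given above, so it is no further result. The single-array calls rest mostly on a spread that limma borrowed from the control pairs of all tested genes (7.85 prior against 1 residual degree of freedom). The distance of the control pair itself was under 0.2 for all 10 members. With the spread taken from all 4 arrays in 2 groups, MYC, MYCL and MXD1 on SH3 had limma's adjusted p = 0.553 each. The ordinary t-test, with no moderation of the control spread, gave adjusted p = 0.524, 0.540 and 0.558. The same settings ended the call of ZFX on SH3 and the calls against the controls of all other genes named below.

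**Figure D2:**
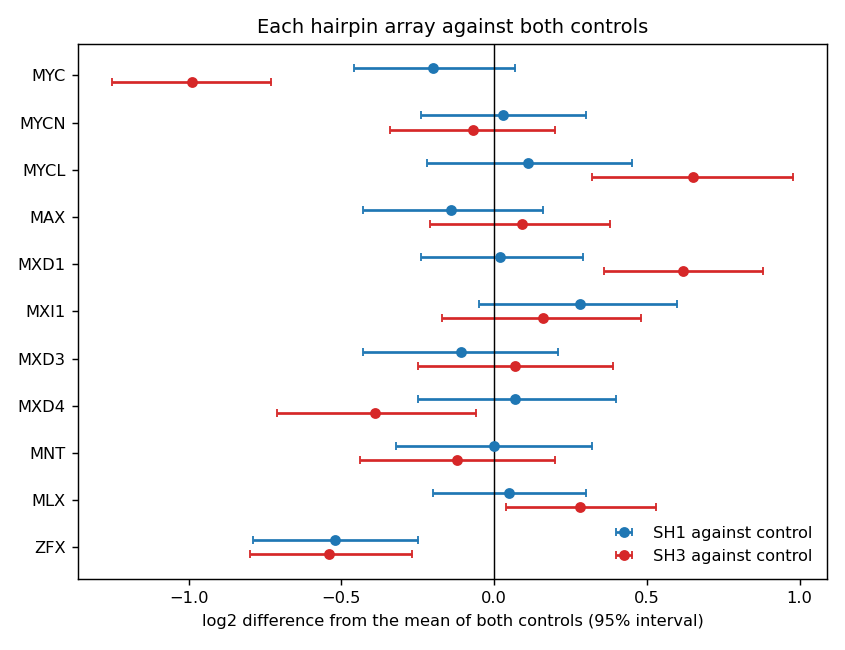
Log2 difference of the SH1 and SH3 arrays from the mean of both controls for the 10 members and ZFX, with 95% limma intervals. Their spread comes from the control pair, moderated over all tested genes. The intervals of SH3 are clear of 0 for MYC (-0.99), MYCL (0.65), MXD1 (0.62), MXD4 (-0.39) and MLX (0.28), of which the last 2 did not pass adjustment, and both hairpins lie at about the same place for ZFX.

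Genes that MYC is known to activate lay mostly below the control mean on SH3, by a smaller median on SH1. Of 64 tested genes of this list, 50 were below it on SH3 and 41 on SH1. On SH3 17 fell and 2 rose (29.7% called, against 13.3% of all tested genes). The median difference was -0.26 on SH3 and -0.05 on SH1, against -0.00146 and -0.000623 over all tested genes. On SH1 1 gene of the list fell (1.56%, against 0.248% of all tested genes) and 0 rose (0.155% of all tested genes).

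PAICS, a bifunctional enzyme of purine synthesis, was at 11.47 on LEN-GFP, 11.44 on SCR, 11.56 on SH1 and 10.47 on SH3. Its fall to 50.3% of control on SH3 (difference -0.99, SE 0.10, limma's adjusted p = 7.22e-04) came with an SH1 value above both controls. PHB1, a mitochondrial prohibitin, was at 12.24, 12.38, 12.16 and 11.35 on LEN-GFP, SCR, SH1 and SH3, and fell to 51.3% on SH3 (limma's adjusted p = 6.91e-04). Factors of ribosome assembly followed, BOP1 at 53.9% of control (difference -0.89, SE 0.14) and PNO1 at 57.1% (difference -0.81, SE 0.15), with limma's adjusted p of 0.00420 and 0.0104. DKC1, the pseudouridine synthase of small nucleolar particles and telomerase, had almost the same difference on the hairpins, -0.57 on SH1 (limma's adjusted p = 0.138) and -0.58 on SH3 (limma's adjusted p = 0.0218).

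The other called genes of the list were picked for mention once their values were known. The pyrimidine enzymes UMPS (-0.80) and CTPS1 (-0.75) fell, as did the mitochondrial transcription factor TFAM (-0.72). The nucleolar and ribosome assembly factors WDR43 (-0.65), MRTO4 (-0.60), NOLC1 (-0.53), WDR12 (-0.52), RRS1 (-0.48) and nucleolin, NCL (-0.44), fell too, with DNPH1 (-0.61), PA2G4 (-0.43) and the cyclin-dependent kinase CDK4 (-0.35). The 2 that rose on SH3 were HK2, a hexokinase (0.73), and FKBP4, an HSP90 co-chaperone (0.46). The calls of NCL, CDK4, RRS1, MRTO4, PA2G4 and FKBP4 were each lost with no filter on dim genes, median centring or no intensity trend (limma's adjusted p = 0.0523 to 0.117).

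The amino acid transporters among the named genes had other patterns. SLC7A5, the light chain of a large neutral amino acid transporter, was at 11.44 on LEN-GFP, 11.11 on SCR, 10.12 on SH1 and 11.27 on SH3. It fell on SH1 alone, to 44.9% of control (difference -1.15, SE 0.14, limma's adjusted p = 0.0178), and SH3 lay between the controls. The call on SH1 was lost with no filter on dim genes (limma's adjusted p = 0.0552) and without the intensity trend in limma (0.0722). The glutamine transporter SLC1A5 was below both controls on SH1 and SH3, with differences of -0.40 and -0.55 that did not pass (limma's adjusted p = 0.464 and 0.0637), and its controls were 0.44 apart.

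The activated genes with and without a promoter E-box were set side by side. Of 55 tested genes of the list with a promoter window, 25 held CACGTG (45.5%). The median SH3 difference was -0.31 over these 25 and -0.20 over the other 30, and 19 of 25 against 25 of 30 were below the control mean. Over all tested genes with a window the median was -0.01 with the E-box and 0.00 without it.

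Genes that MYC is known to repress, many of them inhibitors of growth, leaned the other way on SH3. Of 18 tested, 15 were above the control mean on SH3, with a median of 0.16, against 0.02 on SH1. On SH3 4 rose and 0 fell (22.2% called, against 13.3% of all tested genes). With 18 genes this share cannot be told from that of all tested genes. DAB2, an endocytic adaptor, was dim on the controls, at 6.88 on LEN-GFP and 6.86 on SCR, close to the limit of 6.70 for dim genes. Without detection calls its expression there could not be judged. DAB2 was at 7.46 on SH1 and 7.75 on SH3, above both controls on both hairpins. It rose on SH3 (difference 0.89, SE 0.12, limma's adjusted p = 0.00254), and on SH1 the difference was 0.59 (SE 0.12, limma's adjusted p = 0.100). NDRG1, a stress-responsive gene of differentiated cells, rose on SH3 (0.51), as did the metalloproteinase inhibitor TIMP2 (0.48) and the NF-kB inhibitor NFKBIA (0.43). All 3 of these calls were lost without the intensity trend in limma (adjusted p = 0.0572 to 0.0644), and that of TIMP2 also with no filter (0.0538) or median centring (0.0590). THBS1, the matrix glycoprotein thrombospondin, rose on SH1 instead, from 8.66 and 8.89 on the controls to 10.10 (difference 1.33, SE 0.15, limma's adjusted p = 0.0158), and was at 8.60 on SH3. That call was lost without the trend as well (limma's adjusted p = 0.0540). CDKN1A, the p21 inhibitor of cyclin-dependent kinases, was at -0.30 on SH1 and 0.17 on SH3, and passed on neither.

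MLXIP, the MondoA partner of MLX, was at 10.17 on LEN-GFP, 9.70 on SCR, 9.77 on SH1 and 9.86 on SH3, with both hairpins inside the range of the controls. Of 8 known targets of MLX and MondoA 1 rose on SH3 (12.5% called, against 13.3% of all tested genes), HK2, which also stands in the list of MYC-activated genes. HK2 was at 10.83, 10.72, 10.99 and 11.50 on LEN-GFP, SCR, SH1 and SH3 (SH3 difference 0.73, SE 0.11, limma's adjusted p = 0.00397). The median of these targets was 0.30 on SH3 and -0.03 on SH1. TXNIP and ARRDC4, the arrestin-domain genes most used as a readout of MondoA, had SH3 differences of 0.40 and 0.53 that did not pass (limma's adjusted p = 0.0692 and 0.274), and ARRDC4 differed by -0.82 between SCR and LEN-GFP.

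**Figure D3:**
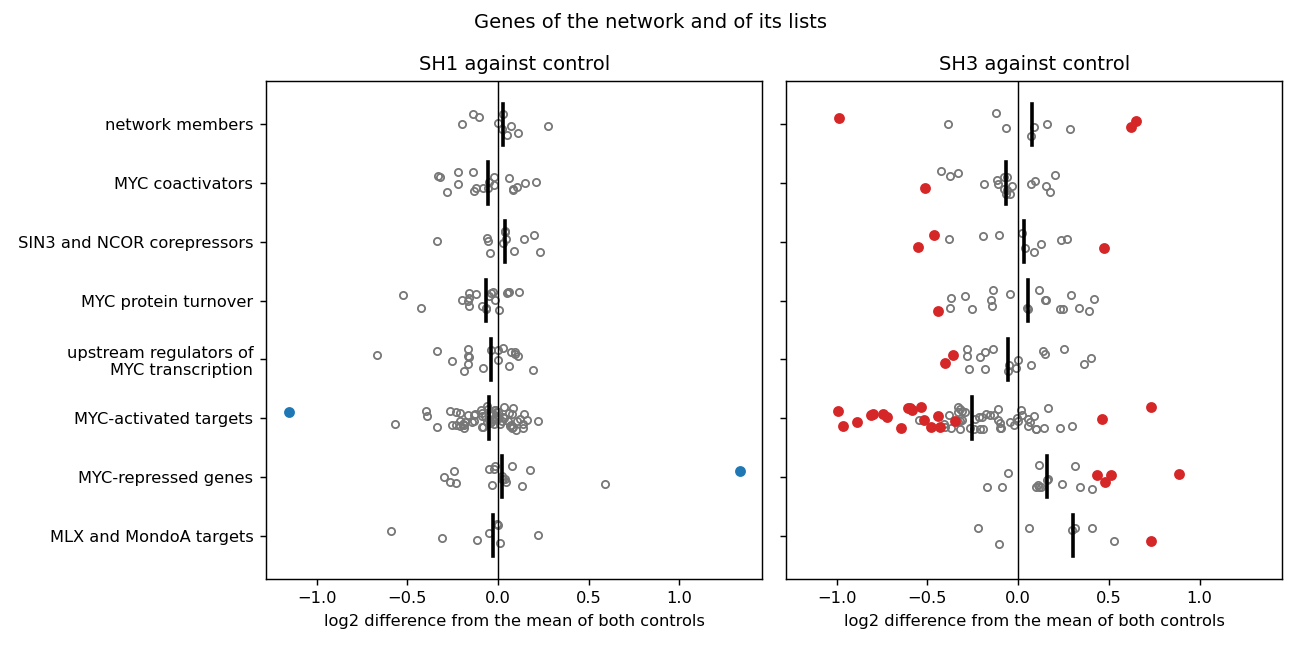
Log2 difference from the mean of both controls for each tested gene of the network and its lists, SH1 on the left and SH3 on the right, with filled points for genes called in limma and a black bar at each list's median. Points are spread vertically for sight only. On SH3 the MYC-activated genes reach -0.99 with a median of -0.26, and the MYC-repressed genes have a median of 0.16.

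The proteins through which the network acts on chromatin came next. Of 19 tested MYC coactivators 1 fell on SH3 and 0 rose (5.26% called, against 13.3% of all tested genes). The gene that fell was the ATPase RUVBL1 (-0.51, SE 0.12, limma's adjusted p = 0.0249). That call was lost with each array centred on its median (limma's adjusted p = 0.0509). Its partner RUVBL2 was at -0.42 (limma's adjusted p = 0.0858), the adaptor WDR5 at -0.38 and the acetyltransferase KAT2A at -0.33, and these 3 had SH1 differences of -0.28, -0.32 and -0.33, without a call.

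Of 12 tested genes of the SIN3 and NCOR corepressors, 2 fell and 1 rose on SH3 (25.0% called, against 13.3% of all tested genes). With 12 genes this share cannot be told from that of all tested genes. RBBP4, a histone-binding subunit, was at 12.85 on LEN-GFP, 12.84 on SCR, 12.51 on SH1 and 12.30 on SH3, below both controls on both hairpins. Its SH3 difference was -0.55 (SE 0.08, limma's adjusted p = 0.00324) and its SH1 difference -0.34 (SE 0.08, limma's adjusted p = 0.141). The deacetylase HDAC2 fell on SH3 (-0.46, SE 0.11, limma's adjusted p = 0.0230), a call that was lost without the intensity trend (limma's adjusted p = 0.0574), and was at 0.04 on SH1. ARID4B, a SIN3-associated protein, rose on SH3 (0.48, limma's adjusted p = 0.0494) and was not called with no filter (limma's adjusted p = 0.0725), with the dimmest 50% left out (0.0524) or with median centring (0.0873). Of the remaining partners, the MAX-binding MGA was at -0.26 on SH3, the MYC-binding ligase MYCBP2 at -0.37 and the zinc finger partner ZBTB17, or MIZ1, at -0.05, and none of 4 tested was called.

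Regulators of MYC itself were looked at on SH3, where 13.3% of all tested genes were called. Lists of 20 and 19 genes are too short to tell their shares from that of all tested genes. The same holds for the other lists above with fewer than 20 tested genes. Of 20 tested genes of MYC protein turnover 1 was called on SH3 (5%), the ubiquitin ligase TRIM32 (-0.44, SE 0.12, limma's adjusted p = 0.0494), and not with no filter, median centring or no trend (limma's adjusted p = 0.0593 to 0.0972). USP28, a deubiquitinase of MYC, was at -0.52 on SH1 and -0.38 on SH3, and the kinase GSK3A at -0.43 on SH1 and 0.06 on SH3, with no call. Also not called on SH3 were USP37 (0.42) and AURKB (0.39), above the control mean, and BTRC (-0.37), below it. Of 19 tested regulators of MYC transcription 2 fell on SH3 (10.5%). MYB, a transcription factor of immature blood cells, was at 12.69, 12.65, 12.67 and 12.27 on LEN-GFP, SCR, SH1 and SH3 (SH3 difference -0.40, SE 0.08, limma's adjusted p = 0.0135). FUBP1, a protein that binds an element upstream of MYC, was at -0.36 on SH3 (limma's adjusted p = 0.0405). Both calls were lost without the intensity trend (limma's adjusted p = 0.0775 and 0.103), and that of FUBP1 also with no filter (0.0640) or median centring (0.0789). TCF7L2 was at -0.19 on SH1 and 0.40 on SH3, without a call. NOTCH1 was not called on either hairpin but differed between them, at -0.67 on SH1 and 0.36 on SH3 (SH3 minus SH1 1.03, SE 0.17, limma's adjusted p = 0.00836).

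The myeloid identity of the cells was checked on 13 markers, of which 12 were above the limit for dim genes. LYZ (14.20 to 14.37), CD68 (13.31 to 13.46) and SPI1 (11.23 to 11.32) were bright and close together on all 4 arrays, and CD34 was dim, at 5.80 on LEN-GFP and 5.91 on SH3. The summed intensity of the 13 markers was 60200 on LEN-GFP, 58900 on SCR, 59400 on SH1 and 55200 on SH3. On SH3 8 of the 12 tested markers were above the control mean and 4 below. Of these 1 rose and 2 fell (25% called, against 13.3% of all tested genes). With 12 markers this share cannot be told from that of all tested genes. LYZ (-0.13), CD68 (0.05), CD14 (0.26) and ITGAM (0.37) were not called on SH3. The markers that fell were MPO and KIT, both of immature cells, while the dim CD34 was at 0.01. MPO, the granule peroxidase of myeloid precursors, fell from 13.30 and 13.36 on the controls to 12.31 on SH3 (difference -1.02, SE 0.08, limma's adjusted p = 2.48e-04) and was at 13.30 on SH1. KIT, the stem cell factor receptor, fell on SH3 as well (-0.91, SE 0.11, limma's adjusted p = 0.00128) and was at 0.03 on SH1. ITGAX, the integrin CD11c, rose on SH3 (0.65, SE 0.13, limma's adjusted p = 0.0149). CSF1R, the macrophage growth factor receptor, rose on SH1 instead (0.96, SE 0.14, limma's adjusted p = 0.0355), a call lost with no filter, median centring or no trend (limma's adjusted p = 0.0652 to 0.0904). The part of such shifts in the MYC and MXD1 values was not tested, and in bulk RNA a changed share of cells and changed RNA per cell cannot be told apart. Of the 5 T cell markers 1 was above the limit, and 0 of the tested T cell, B cell, erythroid, epithelial and fibroblast markers were called on either hairpin in limma. Their summed intensity on SH3 was 360 for T cells against 352 and 391 on the controls, 478 for B cells against 432 and 453, 829 for erythroid against 771 and 803, 2000 for epithelial against 1750 and 1840, and 614 for fibroblasts against 596 and 645.

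The tested genes nearest to the called members in pattern over the 4 arrays were found by the Euclidean distance of log2 values centred on each gene's mean. For MYC these were PPP2R5D (distance 0.022), NETO2 (0.026), TMEM106C (0.043), GON7 (0.047) and NUCB2 (0.069). For MXD1 they were CA11 (0.016), GLTP (0.060), HPRT1 (0.066), SLC30A1 (0.075) and CD86 (0.079). For MYCL they were RETREG1 (0.0083), SIGLEC6 (0.021), STX3 (0.035), CCRL2 (0.039) and CCNG2 (0.041). The measure rests on 4 arrays and describes these arrays only.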

How the data were processed

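RNA of NOMO-1 cells was measured on 4 expression arrays, 1 per construct, from 200 ng of total RNA per the labels' protocols. The authors deposited a linear intensity per probe set (33297 in all). Affymetrix Expression Console 1.1 and RMA are named in the submitters' processing notes, and how values became linear again is not given in the sources. RMA makes arrays alike in distribution, which hides any change of the total RNA of a cell. The array median was 184.8 to 189.8, and the number of arrays limits the precision. All 4 value columns were used.

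The log2 of each intensity was taken as it stood. Probe sets were named by the platform annotation, with symbols checked against RefSeq (GRCh38.p14). Of the probe sets, 19460 had 1 symbol, 1754 several and 12083 none. The brightest stood for its gene, and the dimmest 30% of genes were left out. Tests used limma 3.58.1 in R 4.3.3, with an intensity trend, two-sided, Benjamini-Hochberg adjustment over 12892 genes and a threshold of 0.05. In the 2-group comparison the p-values rest on the spread between arrays within the groups. In the other fits they rest on that of the 2 control constructs, moderated over genes. Those fits hold no spread between hairpin arrays or repeats. An exact permutation test of 2 against 2 arrays cannot go below p = 0.333. The steps were tested on simulated data.

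The members and the gene lists (8 beside the members and 6 of markers) were chosen with earlier results of these data known. The members and ZFX were named. For each list, up to 4 genes with the largest difference on SH3 and up to 3 on SH1 were picked to be named. Some of these that were not called against the controls are left out above. Listed genes without a probe set of a single symbol were not analysed here. Promoter windows came from RefSeq's GRCh38.p14 table, which held 9 of the 10 members, all but MYC. Alternatives varied the filter, probe set rule, pseudocount (16), scaling, variance model and arrays used.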

Additional observations from a re-analysis of the deposited data

Results flagged for a closer look

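For 2 members the hairpins differed from each other by a test of that difference, while ZFX was at nearly the same level on both (its fall on SH1 did not pass, limma's adjusted p = 0.121). MYC on SH3 was lower than on SH1 (log2 difference -0.79, SE 0.13, limma's adjusted p = 0.00986). MXD1 on SH3 was higher than on SH1 (log2 difference 0.60, SE 0.13, limma's adjusted p = 0.0284), a call that held in 4 of 8 other settings, against 6 of 8 for MYC. The settings include the 4-array spread, which could not call a difference between the hairpins for any gene. Each hairpin is 1 array, and the test takes its spread from the control pair, moderated over all tested genes, so it compares these arrays. Groups of 2 arrays are too small to look for a single array far from the rest of its group.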

How the results depend on the processing

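With 1 array per hairpin, calls depend on how the spread is estimated. The numbers of genes called in limma were 1719 for SH3, 52 for SH1 and 1095 between the hairpins. Ordinary statistics gave 5, 5 and 5, and these include genes with a control spread of 0, which are called at any difference. The spread of all 4 arrays in 2 groups gave 0, 0 and 0 (1018, 372 and 0 at an unadjusted p under 0.05). This spread holds the distance between the hairpins, so it could give no call between them. For SH1, no filter gave 20, median centring 23 and no intensity trend 4. Median centring gave 688 between the hairpins. Taken as 1 group, the hairpins gave 0 to 1698 with an array left out, 1698 without SH1, 54 without SH3 and 0 without either control. MYC, MYCL and MXD1 on SH3 were called in 6 of 8 settings with a test each, the exceptions being ordinary statistics and the 4-array spread, and ranged from -1.07 to -0.91, 0.58 to 0.72 and 0.53 to 0.71. Between the hairpins MYC was called in 6 of 8 settings and MXD1 in 4 of 8, with the 4-array spread counted though it could give no call. The adjusted p of MXD1 in limma was 0.0513 with no filter and 0.0644 without the trend. Without 1 hairpin array, the 2-group comparison is that of the other hairpin with both controls, so it repeats the single-array comparison. In the 2-group comparison, leaving out arrays turned the sign of 4 small differences: MAX (-0.14 to 0.09), MYCN (-0.08 to 0.03), MXD3 (-0.11 to 0.07) and MXD4 (-0.39 to 0.07). Median centring turned that of SLC7A5 on SH3 (0.00) and of ZFX between the hairpins (0.01). It was added for the list medians after the data were seen, and moved that of the MYC-activated genes on SH3 to -0.245. The planned filters moved this median to -0.241 (no filter) and -0.243 (dimmest 50% left out). The SH1 median of the MYC-repressed genes was -0.019 with the dimmest 50% left out and 0.007 with median centring. No paired analysis was possible because the labels give no replicate numbers.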
